A study of Mus musculus with 24 samples.

Results

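The 44 protein-coding mouse genes that encode collagen alpha chains were examined for dimethylation of histone H3 at lysine 9 (H3K9me2) in hearts after ischemic preconditioning. Members were all genes whose symbol reads Col, a type number, a and a chain number in RefSeq (assembly GRCm38.p6, which build mm10 represents), with every deposited region that overlaps the gene or lies within 2 kb of it. Of the 44 genes, 27 had such a region, and they held 228 of the 53386 regions. Fibrillar collagens (types 1, 2, 3, 5, 11, 24 and 27) accounted for 6 of 11 genes and 55 regions, basement membrane collagens (types 4, 15 and 18) for 4 of 8 genes and 69 regions, and the remaining types for 17 of 25 genes and 104 regions.

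Chromatin immunoprecipitation with sequencing (ChIP-seq) was carried out on cardiac biopsies of 6 preconditioned mice of the C57BL6 strain, 3 female and 3 male, aged 12 months. Each heart went through 4 rounds of coronary occlusion, with 5 min of ischemia and 5 min of reperfusion, before a last reperfusion of 30 min. The 4 groups of 6 libraries each were H3K9me2 of the area at risk (the myocardium fed by the ligated artery), input chromatin of the area at risk, H3K9me2 of the remote myocardium (the same hearts, outside the ligated territory), and input chromatin of the remote myocardium. All 4 groups come from preconditioned hearts, and sham hearts were not analysed here. About 25 mg of whole tissue went into each chromatin preparation. The counts are of chromatin and not of RNA, so they give no check of the tissue by its marker genes. In such bulk tissue, fewer cells that carry the mark and less of the mark per cell cannot be told apart.

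H3K9me2 is a mark of silenced chromatin, deposited chiefly by the methyltransferases G9a and GLP. Collagens are triple-helical proteins of the extracellular matrix. Fibrillar collagens form the load-bearing network between cardiomyocytes and are made mainly by fibroblasts, and their deposition in excess is the hallmark of cardiac fibrosis. Type IV collagen forms the sheet-like network of the basement membrane around cardiomyocytes and capillaries, and the remaining families include beaded filaments, chains that decorate fibrils (FACITs), transmembrane collagens, short-chain network collagens and anchoring fibrils.

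Counts summed over all deposited regions ran from 416683 to 1196368 per library for H3K9me2 of the area at risk, from 1286383 to 2478668 for its input, from 443261 to 981763 for H3K9me2 of the remote myocardium and from 1405503 to 1770520 for its input. Levels are given as CPM, the count scaled to a common library total over the deposited regions, so a single read in an H3K9me2 library was worth 0.836 to 2.4 CPM in the area at risk and 1.02 to 2.26 CPM in the remote myocardium. Collagen regions took 0.479% to 0.514% of the counts of any library. A region's presence in the deposited set does not mean that H3K9me2 was above input there, and each region was therefore set against input. Fold changes are log2 ratios from edgeR's quasi-likelihood test, given with their standard error (SE), and a region was called at an adjusted p (Benjamini-Hochberg, over all regions tested) under 0.05. Nothing records whether the libraries of a group were prepared in separate batches.

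The 27 collagen genes were unequally covered. Col4a2 held 27 regions, Col4a1 20, Col5a1 20, Col13a1 17, Col16a1 16, Col18a1 16, Col27a1 15, Col23a1 13 and Col26a1 11. Col15a1, Col8a2, Col20a1, Col1a1, Col7a1, Col17a1 and Col11a2 held 9, 9, 7, 7, 6, 6 and 5 regions, in that order, and Col5a3 and Col2a1 held 4 each. Col6a3, Col6a6, Col6a2 and Col9a3 had 3 regions each, Col6a1 and Col12a1 2 each, and Col25a1, Col6a4 and Col9a2 1 each. The 17 genes with no region were Col1a2, Col3a1, Col5a2, Col11a1 and Col24a1 among the fibrillar collagens, Col4a3, Col4a4, Col4a5 and Col4a6 among the basement membrane collagens, and Col6a5, Col8a1, Col9a1, Col10a1, Col14a1, Col19a1, Col22a1 and Col28a1 among the others. Col3a1 and Col1a2, which encode major fibril chains of the heart, therefore gave no value. The 228 regions were 800 to 12600 bases wide (median 2800), 89 of them overlapped another deposited region, 19 held no read in any library and 3 lay at both Col4a1 and Col4a2. How reads in such overlaps were counted is not given in the sources used here. Of the 2 Col12a1 regions, 1 lies wholly within the other and 1 held no read. Reads in an overlap may thus be missing from the counts, and values of an overlapping region may describe only its unshared part. The tests set groups against each other within a region. A region called the highest of its gene is so in CPM per region, which also depends on its width.

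In the area at risk, H3K9me2 exceeded input at 22 collagen regions and lay below it at 12 of the 187 tested. Over all 40928 regions tested, 23.6% were called, 11.3% higher and 12.3% lower. The share of collagen regions called higher, 11.8%, was near the background, and that called lower, 6.42%, was below it. In the remote myocardium 37 of 184 collagen regions were higher than input and 22 lower (20.1% and 12%). There 40.5% of all regions were called, 20.5% higher and 20% lower, so again the lower share alone was below the background. These differences from the background were not tested. The median log2 fold change of the collagen regions was 0.06 in the area at risk, where that of all regions tested was 0.01, and for remote tissue it was 0.03, where that of all regions was 0.01. Without mouse 19, 14 regions were higher and 6 lower in the area at risk, and without mouse 17, 7 were lower; DESeq2 called 5 lower. No collagen region reached a log2 fold change of 1 in either direction in the area at risk, and 3 did in the remote myocardium.

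The plot of all tested regions by gene shows the calls of each class. Of basement membrane regions, 3 were higher and 10 lower of 57 in the area at risk (median log2 fold change -0.24), and 2 were higher and 13 lower of 56 in the remote myocardium (median -0.21). Fibrillar regions had 4 higher and 0 lower calls of 45 in the area at risk (median 0.17) and 8 higher and 4 lower of 43 in the remote myocardium (median 0.21). Among the remaining collagens 15 regions were higher and 2 lower of 85 in the area at risk (median 0.18), and 27 were higher and 5 lower of 85 in the remote myocardium (median 0.15). In the area at risk, lower calls among basement membrane regions numbered 6 without mouse 17, 5 without mouse 19 and 4 by DESeq2. Higher fibrillar calls there numbered 1 without mouse 19, 1 without mouse 22 and 2 without mouse 30, and lower calls among the remaining collagens numbered 1 without mouse 17, 19 or 30 and 4 without mouse 23. In the remote myocardium, higher fibrillar calls numbered 5, 4 and 5 without mice 19, 23 and 27, and lower ones 2 without mouse 30. Lower calls thus took 17.5% of basement membrane regions in the area at risk, beside 23.2% in remote tissue, where 12.3% and 20% of all regions were lower, so the remote share was near the background. Higher calls took 8.89% and 18.6% of fibrillar regions and 17.6% and 31.8% of the remaining collagens, in the same order of biopsies, where 11.3% and 20.5% of all regions were higher. The difference between the classes was not tested, because the classes were drawn up with earlier results of these data known.

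**Figure D1:**
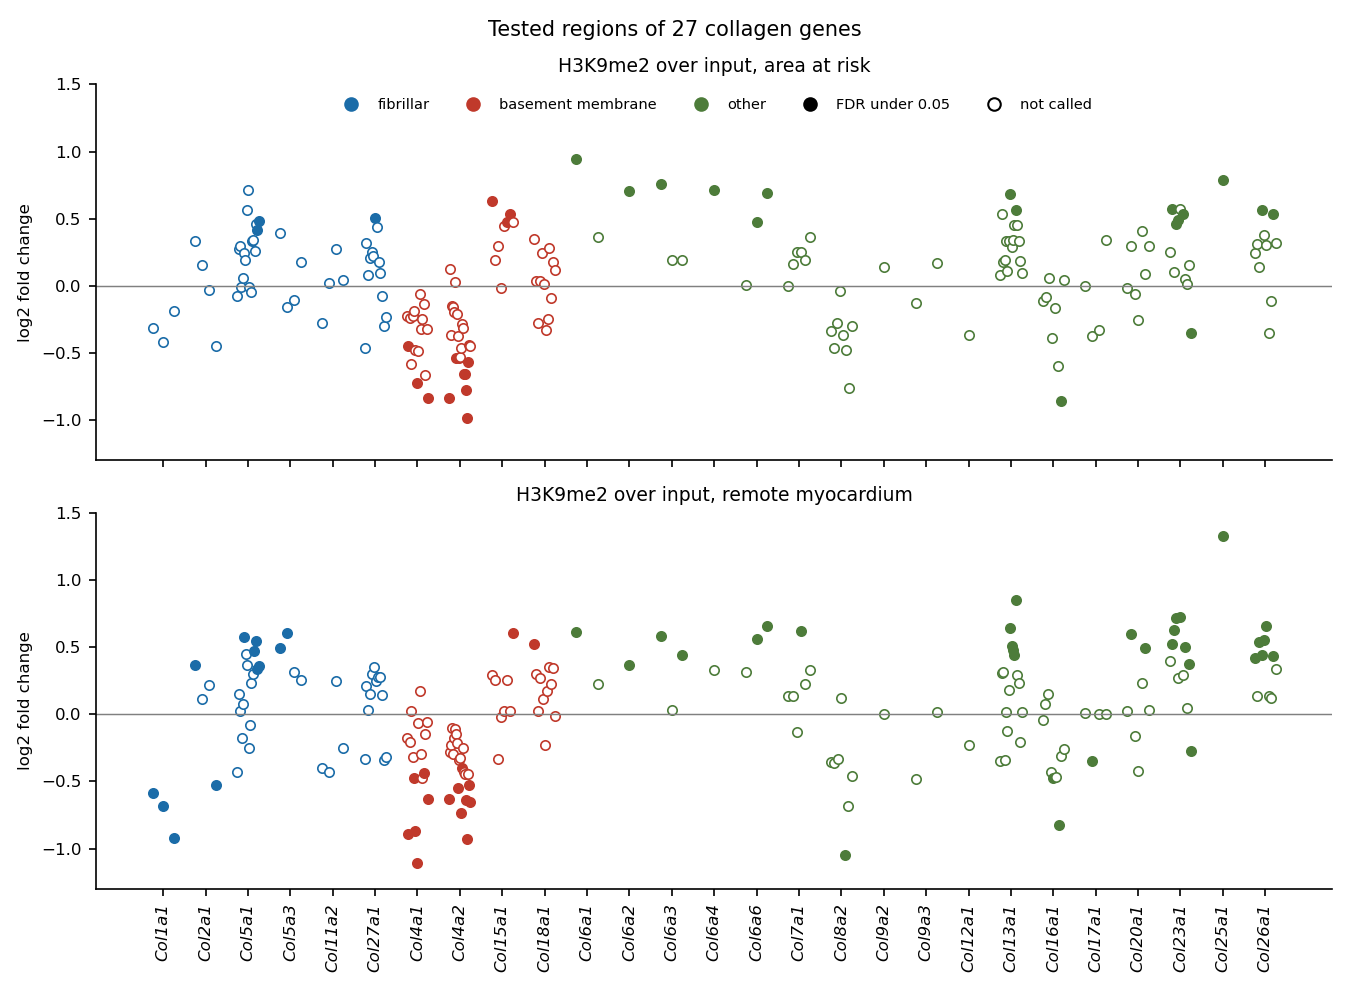
Log2 fold change of H3K9me2 over input (vertical axis) of each tested region, ordered by position within its gene (horizontal axis), in each biopsy (area at risk above, remote myocardium below); colours mark the class, and filled points passed an adjusted p of 0.05. Col4a1 and Col4a2 held 0 called regions above 0 in either biopsy, while Col13a1 and the Col6a chains held 0 called regions below 0; the region shared by the Col4 genes is drawn under both.

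Counts were also summed over each class, without comparable sums of other regions as a background. Basement membrane regions together held 1329 to 1514 CPM in H3K9me2 of the area at risk (median 1369), against 1563 to 1636 CPM in input (median 1610). In the remote myocardium they held 1311 to 1416 CPM in H3K9me2 (median 1372), against 1522 to 1651 CPM in input (median 1581). H3K9me2 and input did not overlap in either biopsy.

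Fibrillar regions held 1254 to 1347 CPM in H3K9me2 of the area at risk (median 1309), against 1145 to 1230 CPM in input (median 1178), and 1253 to 1355 CPM in H3K9me2 of the remote myocardium (median 1318), against 1187 to 1268 CPM in input (median 1208). The groups stood apart in the area at risk and overlapped in the remote myocardium. The other collagens held 2245 to 2384 CPM in H3K9me2 of the area at risk (median 2324), against 2048 to 2116 CPM in input (median 2070), and 2270 to 2405 CPM in H3K9me2 of the remote myocardium (median 2356), against 2047 to 2137 CPM in input (median 2098). For this class H3K9me2 was above input without overlap in both biopsies.

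**Figure D2:**
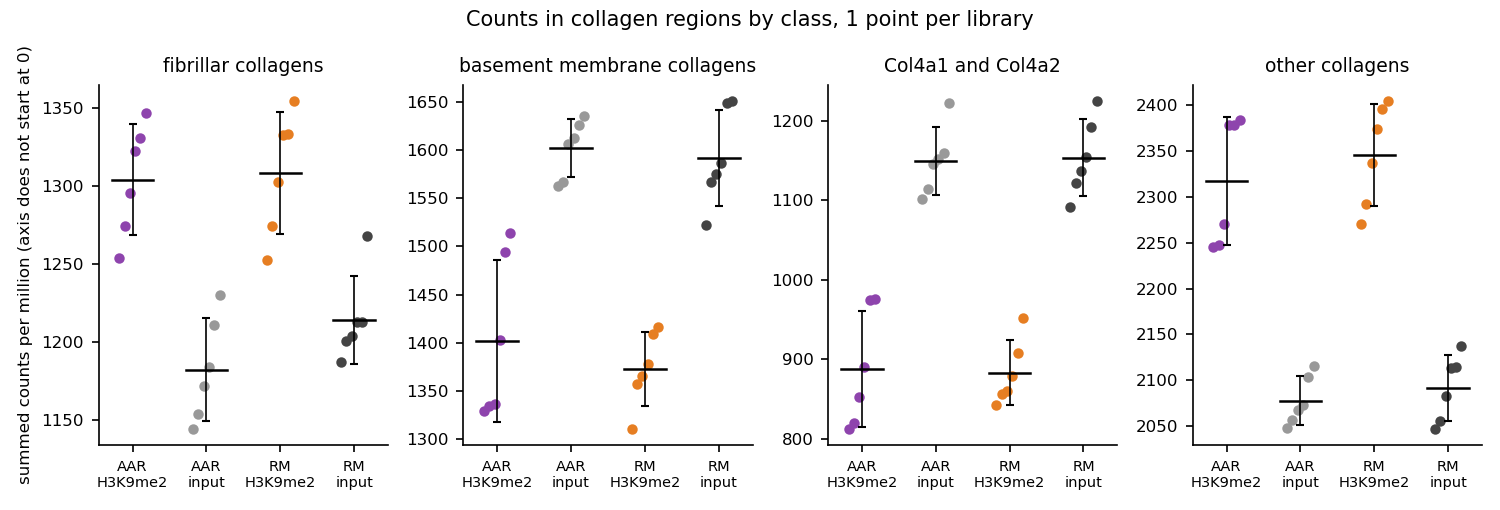
Summed CPM (vertical axis, not starting at 0) in the regions of each collagen class and of Col4a1 with Col4a2, 1 point per library in the 4 groups, with the mean (bar) and SD (whiskers, n = 6). For Col4a1 with Col4a2, H3K9me2 libraries of the area at risk lay at 812 to 976 and those of its input at 1102 to 1223.

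The basement membrane result rested on Col4a1 and Col4a2, which encode the chains of the most widespread type IV collagen molecule and are transcribed in opposite directions from starts 21 bases apart on chromosome 8. Of their 37 tested regions, 0 were higher and 10 lower than input in the area at risk (median log2 fold change -0.37), and 0 were higher and 13 lower in the remote myocardium (median -0.32). That is 27% and 35.1% called lower, where 12.3% and 20% of all regions were lower and 11.3% and 20.5% higher. Fold changes were below 0 at 35 of the 37 regions in each biopsy. Without these genes, basement membrane regions had 3 higher and 0 lower calls of 20 in the area at risk and 2 higher and 0 lower of 19 in the remote myocardium. Summed over both genes, H3K9me2 libraries held 812 to 976 CPM in the area at risk (median 871), against 1102 to 1223 CPM in input (median 1149). The remote myocardium had 842 to 952 CPM in H3K9me2 (median 869), against 1091 to 1225 CPM in input (median 1146). The ranges of H3K9me2 and input were separate in both biopsies.

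The deficit ran through both gene bodies. At chr8:11215200-11225599 in Col4a1, the gene's region of highest CPM, the area at risk had 39.6 to 86.4 CPM in H3K9me2 (median 68.1), against 84.6 to 95.2 CPM in input (median 89.8). Its remote counterpart held 33.8 to 72.9 CPM in H3K9me2 (median 52.9), against 94.6 to 108 CPM in input (median 100.2). H3K9me2 was lower than input in 6 of 6 mice in both biopsies, with overlap of the groups in the area at risk alone. Relative to input, the log2 fold change was -0.45 (SE 0.12, adjusted p = 0.00434) in the area at risk and -0.89 (SE 0.11, adjusted p = 2.58e-12) in the remote myocardium.

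In Col4a2, the region chr8:11409000-11414799 held 18 to 40 CPM in H3K9me2 of the area at risk (median 32.7), against 43.3 to 64.7 CPM in input (median 57.7). In the remote myocardium it held 23.7 to 47.4 CPM in H3K9me2 (median 35.1), against 49.8 to 66.1 CPM in input (median 56.5). The groups did not overlap in either biopsy, and the log2 fold change was -0.78 (SE 0.15, adjusted p = 0.000123) in the area at risk and -0.64 (SE 0.13, adjusted p = 3.29e-05) in the remote myocardium. A short Col4a1 region, chr8:11252000-11253599, had the lowest fold change of the collagens in the remote myocardium, at -1.11 (SE 0.25, adjusted p = 0.000109), and was lower in 5 of 6 mice. In the area at risk its call (-0.73, SE 0.27, adjusted p = 0.0414) was lost without mouse 17, 19 or 23 (adjusted p = 0.0885, 0.195 and 0.128) and by DESeq2 (adjusted p = 0.0828). It held 3.74 to 14.5 CPM in H3K9me2 (median 8.7), against 14.2 to 23 CPM in input (median 19.8). The groups overlapped narrowly there. Not every region of the locus passed the test: the region of highest CPM in Col4a2, chr8:11339400-11350999, had a log2 fold change of -0.20 (SE 0.11, adjusted p = 0.17) in the area at risk and -0.17 (SE 0.10, adjusted p = 0.137) in the remote myocardium.

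**Figure D3:**
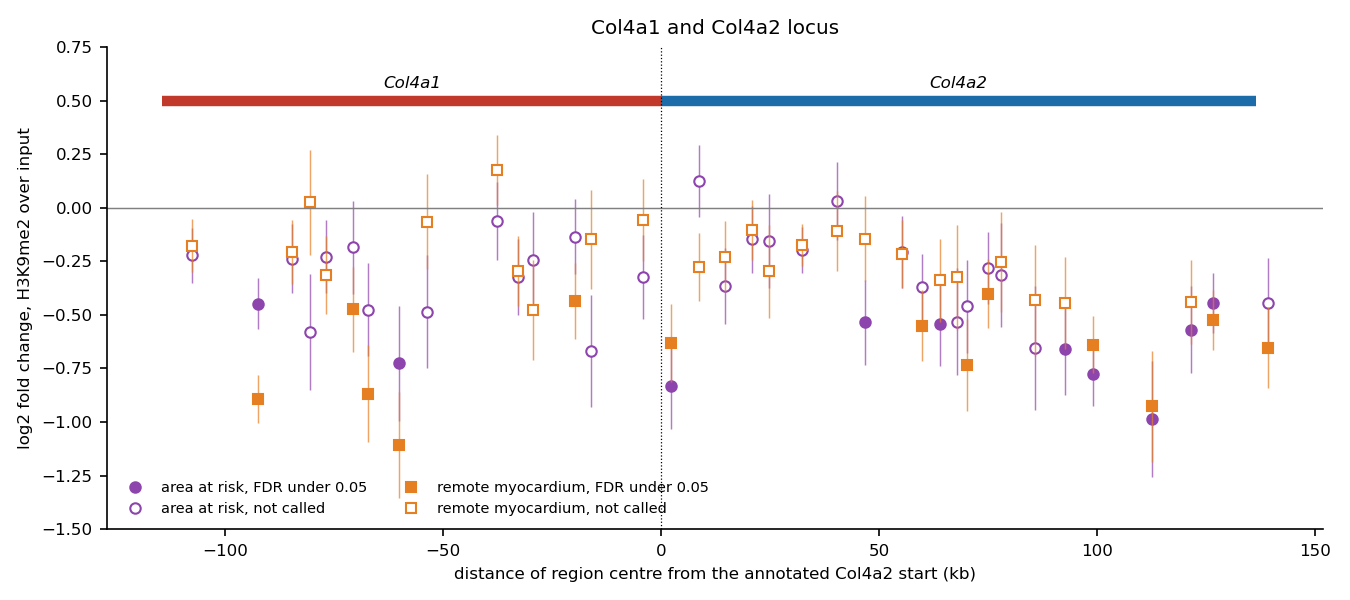
Log2 fold change of H3K9me2 over input with its SE (vertical axis) for regions of Col4a1 and Col4a2, against the distance in kb of the region's centre from the annotated Col4a2 start (horizontal axis); bars at the top show the genes, circles the area at risk, squares the remote myocardium, and filled symbols an adjusted p under 0.05. Called regions lay on both sides of the start, all of them below 0.

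The region over the shared start, chr8:11311600-11318599, wholly contains another deposited region, chr8:11312400-11315999, which also holds both starts. Reads in that overlap may be missing from the wider region's counts, so its values may describe only the sequence beside the starts. The wider region held 13.4 to 21.6 CPM in H3K9me2 of the area at risk (median 15.2), against 21 to 35.7 CPM in input (median 29.9). In the remote myocardium it held 11.3 to 24.4 CPM in H3K9me2 (median 17.3), against 25.4 to 36.3 CPM in input (median 27.5). H3K9me2 was lower in 6 of 6 mice in both biopsies, and the groups were separate in the remote myocardium. On the log2 scale the fold change was -0.83 (SE 0.20, adjusted p = 0.0016) in the area at risk and -0.63 (SE 0.18, adjusted p = 0.00276) in the remote myocardium.

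Starts could be placed for 35 collagen genes, from RefSeq promoter windows of 300 bases (250 before the start and 50 after it, GRCm38.p6), and 12 starts of 11 genes lay in a deposited region. Those with a called region over the start were Col4a1, Col4a2, Col6a3 and Col20a1. The 4 windows were picked by these calls, with H3K9me2 below input for the first pair and above input, in the remote myocardium, for the other. They lie at chr8:11312777-11313076 on the minus strand, chr8:11312555-11312854 on the plus strand, chr1:90843922-90844221 on the minus strand and chr2:180986285-180986584 on the plus strand, and capitals mark each CG.
Col4a1 promoter: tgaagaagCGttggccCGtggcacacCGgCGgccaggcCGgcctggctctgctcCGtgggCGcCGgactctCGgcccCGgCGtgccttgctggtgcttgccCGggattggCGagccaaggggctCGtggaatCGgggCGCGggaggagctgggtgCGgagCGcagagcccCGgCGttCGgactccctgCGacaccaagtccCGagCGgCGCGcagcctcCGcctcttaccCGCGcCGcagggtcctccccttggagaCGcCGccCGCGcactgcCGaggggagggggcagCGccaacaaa
Col4a2 promoter: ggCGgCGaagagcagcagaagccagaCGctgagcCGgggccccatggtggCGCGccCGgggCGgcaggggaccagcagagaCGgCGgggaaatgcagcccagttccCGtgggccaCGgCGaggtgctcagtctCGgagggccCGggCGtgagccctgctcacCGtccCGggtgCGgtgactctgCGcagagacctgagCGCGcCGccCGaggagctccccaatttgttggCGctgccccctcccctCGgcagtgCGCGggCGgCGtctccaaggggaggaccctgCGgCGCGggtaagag
Col6a3 promoter: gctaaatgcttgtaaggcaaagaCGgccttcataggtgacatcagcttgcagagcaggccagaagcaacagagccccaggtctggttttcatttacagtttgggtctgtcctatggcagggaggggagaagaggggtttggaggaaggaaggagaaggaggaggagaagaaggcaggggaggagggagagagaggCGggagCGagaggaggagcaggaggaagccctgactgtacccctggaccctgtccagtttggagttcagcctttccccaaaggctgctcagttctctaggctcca
Col20a1 promoter: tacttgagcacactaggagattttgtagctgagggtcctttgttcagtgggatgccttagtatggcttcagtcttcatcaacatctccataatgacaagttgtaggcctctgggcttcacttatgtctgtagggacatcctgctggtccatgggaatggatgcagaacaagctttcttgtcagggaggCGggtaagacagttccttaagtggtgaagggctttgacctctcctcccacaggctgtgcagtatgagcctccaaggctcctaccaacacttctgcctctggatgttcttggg
The Col4a1 window held 37 CG and the Col4a2 window 33, more than 94.4% and 91.4% of the 32851 RefSeq promoter windows, while the Col6a3 window held 3 and the Col20a1 window 1, beside a median of 7. The Col4a1 and Col4a2 windows overlap, so some CG are counted in both and they are not separate cases. The motif GGGCGG, searched on both strands and itself containing a CG, occurred once or more in the Col4a1 and Col4a2 windows and in 35.7% of all windows, and was not among the letters of the Col6a3 and Col20a1 windows. CCAAT, also on both strands, was found in the Col4a1 and Col4a2 windows and in 37.4% of all windows. TATAAA, which 13.6% of windows hold, was in none of the 4. Other starts in tested regions were not called, and their log2 fold changes follow for the area at risk and the remote myocardium. Windows with more CG were those of Col13a1 (29 CG, 0.10 and 0.02), Col16a1 (24 CG, -0.11 and -0.04) and Col5a3 (20 CG, 0.17 and 0.26). Col27a1 had 18 CG (-0.47 and -0.33), Col11a2 16 (-0.28 and -0.40) and Col18a1 6 (0.24 and 0.12). With so few starts in called regions, no relation between CG number and H3K9me2 was tested.

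At the start of Col6a3, which encodes a chain of the type VI collagen filaments, the region chr1:90840800-90846599 held 41.8 to 63.8 CPM in H3K9me2 of the area at risk (median 49.2), against 35.4 to 50.1 CPM in input (median 43.6). The remote myocardium had 54.9 to 65.6 CPM in H3K9me2 (median 63.8), against 39.1 to 49.7 CPM in input (median 46.6). Only in the remote myocardium were the groups separate and the region called, with a log2 fold change of 0.44 (SE 0.12, adjusted p = 0.00145), beside 0.19 (SE 0.13, adjusted p = 0.289) in the area at risk. The difference between the fold changes of the biopsies was -0.24 (SE 0.17) and did not pass the test (edgeR adjusted p = 1 over all regions, unadjusted p = 0.161). At the Col20a1 start, chr2:180986400-180989199, the log2 fold changes were 0.29 (adjusted p = 0.223) in the area at risk and 0.60 (adjusted p = 0.0019) in the remote myocardium, and without mouse 30 the area at risk passed too (0.51, adjusted p = 0.0473). Col20a1 encodes a FACIT chain. Among all collagen regions that hold a start, 0 were higher and 1 lower of 9 in the area at risk, and 2 were higher and 1 lower of 9 in the remote myocardium.

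Among the other basement membrane collagens, Col15a1 and Col18a1 encode proteoglycan collagens, and the end fragment of the latter gene's product is endostatin. Col15a1 had 3 regions above input in the area at risk, beside 1 in remote tissue, of 8 tested, and 0 below. One of the 3, chr4:47202200-47205799 (0.63, SE 0.15, adjusted p = 0.00164), lies outside the gene, within 2 kb of it. Another, chr4:47268600-47271199 (0.47, SE 0.17, adjusted p = 0.0302), was lost without mouse 17, 19, 22, 23 or 30 (adjusted p from 0.053 to 0.0856) and by DESeq2 (adjusted p = 0.0613), and the remote call, chr4:47299000-47300599, without mouse 17 (adjusted p = 0.0571). At chr4:47278600-47282199 it had 40 to 61.2 CPM in H3K9me2 of the area at risk (median 41.2), against 29.6 to 32.5 CPM in input (median 30.2). The same region had 22.6 to 43.8 CPM in H3K9me2 of the remote myocardium (median 35.5), against 27.7 to 49.8 CPM in input (median 34.9). The groups were separate in the area at risk and mixed in the remote myocardium. The log2 fold change was 0.54 (SE 0.14, adjusted p = 0.00468) in the area at risk and 0.02 (SE 0.15, adjusted p = 0.914) in the remote myocardium. Col18a1 had 0 calls among 12 regions tested in the area at risk and 1 of 11 in the remote myocardium. That called region (log2 fold change 0.53, SE 0.17, adjusted p = 0.00845) overlaps Slc19a1 and lies outside Col18a1, within 2 kb of the 3′ end of Col18a1.

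Fibrillar collagens divided by gene. Col1a1, which encodes the main chain of type I collagen, the most abundant collagen of the myocardial interstitium, was below input at all 3 of its tested regions in the remote myocardium and had 0 calls in the area at risk. At chr11:94939600-94943199 the area at risk had 16.8 to 30.9 CPM in H3K9me2 (median 23.6), against 26.9 to 37.3 CPM in input (median 33.4). The corresponding remote values were 13.1 to 31.6 CPM in H3K9me2 (median 20.4), against 25 to 47.8 CPM in input (median 35.1). H3K9me2 was lower in 6 of 6 mice in both biopsies although the groups overlapped. On the log2 scale the fold change was -0.42 (SE 0.17, adjusted p = 0.0614) in the area at risk and -0.68 (SE 0.17, adjusted p = 0.000424) in the remote myocardium.

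The other tested Col1a1 regions were chr11:94932600-94936599 and chr11:94945800-94949599, of which the latter wholly contains other deposited regions and may be counted only outside them. In that order they had log2 fold changes of -0.31 and -0.19 in the area at risk and of -0.58 and -0.92 in the remote myocardium. These are not shown to differ between the biopsies, since the interaction gave 0.28 (SE 0.23), 0.27 (SE 0.25) and 0.74 (SE 0.44) for the 3 regions in chromosomal order, with unadjusted p of 0.233, 0.282 and 0.0943. Of the 7 Col1a1 regions, 4 were too low in counts to be tested.

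Col5a1, whose type V chain starts and thins fibrils, went the other way. It had 3 regions above input and 0 below of 17 in the area at risk, and 5 above and 0 below of 16 in the remote myocardium. At chr2:28015400-28022399 it held 73.1 to 99.4 CPM in H3K9me2 of the area at risk (median 82.5), against 49.9 to 68.4 CPM in input (median 62.7), and 77.2 to 94.7 CPM in H3K9me2 of the remote myocardium (median 83.5), against 59.3 to 83.2 CPM in input (median 65.8). The groups were separate in the area at risk and overlapped in the remote myocardium. Relative to input, the log2 fold change was 0.41 (SE 0.11, adjusted p = 0.00622) in the area at risk and 0.34 (SE 0.10, adjusted p = 0.00533) in the remote myocardium. Without mouse 30 the area at risk missed the threshold (0.30, adjusted p = 0.0712). A second Col5a1 region, chr2:28028400-28031799, was also called in both, at 0.48 (SE 0.16, adjusted p = 0.0185) in the area at risk and 0.36 (SE 0.14, adjusted p = 0.0343) in the remote myocardium. Its calls were lost without mouse 19, 22 or 30 in the area at risk (adjusted p from 0.0553 to 0.11), and without mouse 23, 27 or 30 (adjusted p from 0.0686 to 0.238) or by DESeq2 (adjusted p = 0.0862) in the remote myocardium. Of the other remote calls in Col5a1, chr2:28004400-28006999 was lost without mouse 19 (adjusted p = 0.0629) and chr2:27937200-27940799 without mouse 23 or 30 (adjusted p = 0.0656 and 0.114).

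Of the minor and cartilage-type fibrillar genes, Col5a3 had 2 of 4 tested regions above input in the remote myocardium and 0 in the area at risk. One of them, chr9:20784800-20786399 (0.61, SE 0.21, adjusted p = 0.0142), missed the threshold without mouse 19 or 30 (adjusted p = 0.0965 and 0.051). Col27a1 had 1 of 13 above input in the area at risk and 0 of 12 in the remote myocardium, and that call was lost without mouse 17, 19, 22 or 23 (adjusted p from 0.0731 to 0.147) and by DESeq2 (adjusted p = 0.0692). Col2a1, the main collagen gene of cartilage, had 1 region above and 1 below input of 4 in the remote myocardium, at opposite ends of the gene. Col11a2 had 0 calls of 4 in both biopsies.

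The group of beaded filament and related genes was the most evenly enriched. It joined the type VI genes with Col26a1, which held 10 of the 20 tested regions in each biopsy. Together they had 8 regions above and 0 below input of 20 tested in the area at risk (median log2 fold change 0.34). In the remote myocardium 12 were above and 0 below of 20 (median 0.43). Calls above input thus took 40% and 60% of these regions, where 11.3% and 20.5% of all regions were higher. Each type VI gene with a region (Col6a1, Col6a2, Col6a3, Col6a4 and Col6a6) had at least 1 call above input in the area at risk, although that of Col6a4, its only region, was lost without mouse 22 (adjusted p = 0.118). In Col6a3, at chr1:90771000-90773599, the area at risk had 29 to 48.6 CPM in H3K9me2 (median 33.6), against 16.9 to 26.8 CPM in input (median 20.5). The remote myocardium had 23.2 to 43.7 CPM in H3K9me2 (median 37.1), against 20.1 to 35.2 CPM in input (median 22.2). The groups were separate in the area at risk and overlapped in remote tissue, although H3K9me2 was higher in 6 of 6 mice. The log2 fold change was 0.76 (SE 0.18, adjusted p = 0.00127) in the area at risk and 0.58 (SE 0.16, adjusted p = 0.00141) in the remote myocardium.

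Col6a2 at chr10:76599800-76603199 had log2 fold changes of 0.70 (SE 0.15, adjusted p = 0.000542) in the area at risk and 0.36 (SE 0.14, adjusted p = 0.0309) in the remote myocardium, with H3K9me2 higher in 6 of 6 mice in both. Its neighbour Col6a1 was called at chr10:76714200-76717399, at 0.94 (SE 0.27, adjusted p = 0.00696) and 0.61 (SE 0.25, adjusted p = 0.0359), in the same order of biopsies. The remote call of Col6a2 was lost without mouse 17, 23 or 27 (adjusted p from 0.0654 to 0.24) and by DESeq2 (adjusted p = 0.0623), and that of Col6a1 without mouse 17, 19, 23 or 30 (adjusted p from 0.0733 to 0.175) and by DESeq2 (adjusted p = 0.078). The Col6a1 region overlaps another and was thin, with 11.7 to 22.2 CPM in H3K9me2 of the area at risk against 5.44 to 11.4 CPM in input. Col26a1, which is not a type VI gene but was counted in this group, had 2 of 10 regions above input in the area at risk. In the remote myocardium 6 of 10 were above, with 0 below in both.

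Transmembrane collagens sit in the cell membrane and shed their ectodomains. They had 7 regions above and 1 below input of 32 in the area at risk (median log2 fold change 0.31), and 12 above and 2 below of 32 in the remote myocardium (median 0.29). Calls above input took 21.9% and 37.5% of them, where 11.3% and 20.5% of all regions were higher. Col25a1, first known as a component of amyloid plaques in the brain, had the highest fold change of any collagen region in the remote myocardium, at chr3:130537200-130539799. It held 25 to 66.6 CPM in H3K9me2 of the area at risk (median 28.6), against 12.9 to 43.1 CPM in input (median 18.6). Remote libraries held 21.4 to 55.2 CPM in H3K9me2 (median 32.6), against 9.86 to 15.9 CPM in input (median 13.7). The groups overlapped in the area at risk, where one input library stood at 43.1 CPM and the next at 21 CPM. H3K9me2 was higher in 6 of 6 mice in both biopsies, with a log2 fold change of 0.79 (SE 0.22, adjusted p = 0.00645) in the area at risk and 1.33 (SE 0.19, adjusted p = 5.2e-10) in the remote myocardium. The call in the area at risk was lost without mouse 19 (0.57, adjusted p = 0.0826) and by DESeq2 (0.81, adjusted p = 0.112).

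Col13a1, which lies at the neuromuscular junction, had 2 of 16 regions above input in the area at risk and 5 of 16 in the remote myocardium. At chr10:61946800-61950399 it held 37.1 to 52.8 CPM in H3K9me2 of the area at risk (median 48.9), against 27 to 42.8 CPM in input (median 30.6), and 46.2 to 65.3 CPM in H3K9me2 of the remote myocardium (median 56.6), against 25.6 to 36.1 CPM in input (median 30.2). The groups were separate in the remote myocardium alone. This gave a log2 fold change of 0.57 (SE 0.14, adjusted p = 0.00294) in the area at risk and 0.86 (SE 0.13, adjusted p = 2.36e-08) in the remote myocardium. Col23a1 had 4 regions above and 1 below input of 11 in the area at risk and 6 above and 1 below in the remote myocardium. The Col23a1 region below input was the same in both, chr11:51578600-51587999 at the 3′ end, which also overlaps Phykpl and holds its start (log2 fold changes -0.35 and -0.28). It was lost without mouse 17, 19 or 30 in the area at risk (adjusted p from 0.0543 to 0.078), without mouse 17, 22 or 30 in the remote myocardium (adjusted p from 0.0633 to 0.128), and by DESeq2 in both (adjusted p = 0.0513 and 0.0778). Col17a1, a hemidesmosome collagen of epithelia, had 0 calls of 4 in the area at risk and 1 below input in the remote myocardium.

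The remaining families held few calls. FACIT genes had 0 regions above and 1 below input of 19 in the area at risk (5.26% called, beside 23.6% of all regions). In the remote myocardium 2 were above and 2 below of 20 (20% called, beside 40.5% of all regions). The deepest was in Col16a1 at chr4:130084400-130091199, with 18.4 to 42.6 CPM in H3K9me2 of the area at risk (median 31.8), against 44.3 to 71.4 CPM in input (median 60.4). In the remote myocardium it had 18.9 to 48.9 CPM in H3K9me2 (median 26.6), against 52.5 to 59.2 CPM in input (median 57). The groups were separate in both biopsies, with log2 fold changes of -0.86 (SE 0.15, adjusted p = 3.04e-05) in the area at risk and -0.82 (SE 0.14, adjusted p = 2.64e-07) in the remote myocardium, although this region too overlaps another. The second remote call below input, in Col16a1 at chr4:130071800-130079399, was lost without mouse 17 (adjusted p = 0.106). Col9a2, Col9a3 and Col12a1 had 0 calls in either biopsy.

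Col8a2, which encodes a network-forming collagen of vessel and corneal membranes, was below 0 at each of the 8 regions tested in the area at risk, with 0 calls. At its 3′ end, chr4:126311000-126313599, the area at risk had 9.6 to 25.1 CPM in H3K9me2 (median 13), against 21.4 to 29 CPM in input (median 23.4). The remote myocardium had 7.26 to 23.4 CPM in H3K9me2 (median 12.8), against 23.1 to 36.3 CPM in input (median 30.8). H3K9me2 was lower in 6 of 6 mice in both biopsies. This gave a log2 fold change of -0.48 (SE 0.20, adjusted p = 0.0782) in the area at risk and -1.05 (SE 0.19, adjusted p = 2.31e-06) in the remote myocardium. Col7a1, the anchoring fibril collagen of skin, had 0 calls of 6 in the area at risk and 1 above input of 6 in the remote myocardium.

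**Figure D4:**
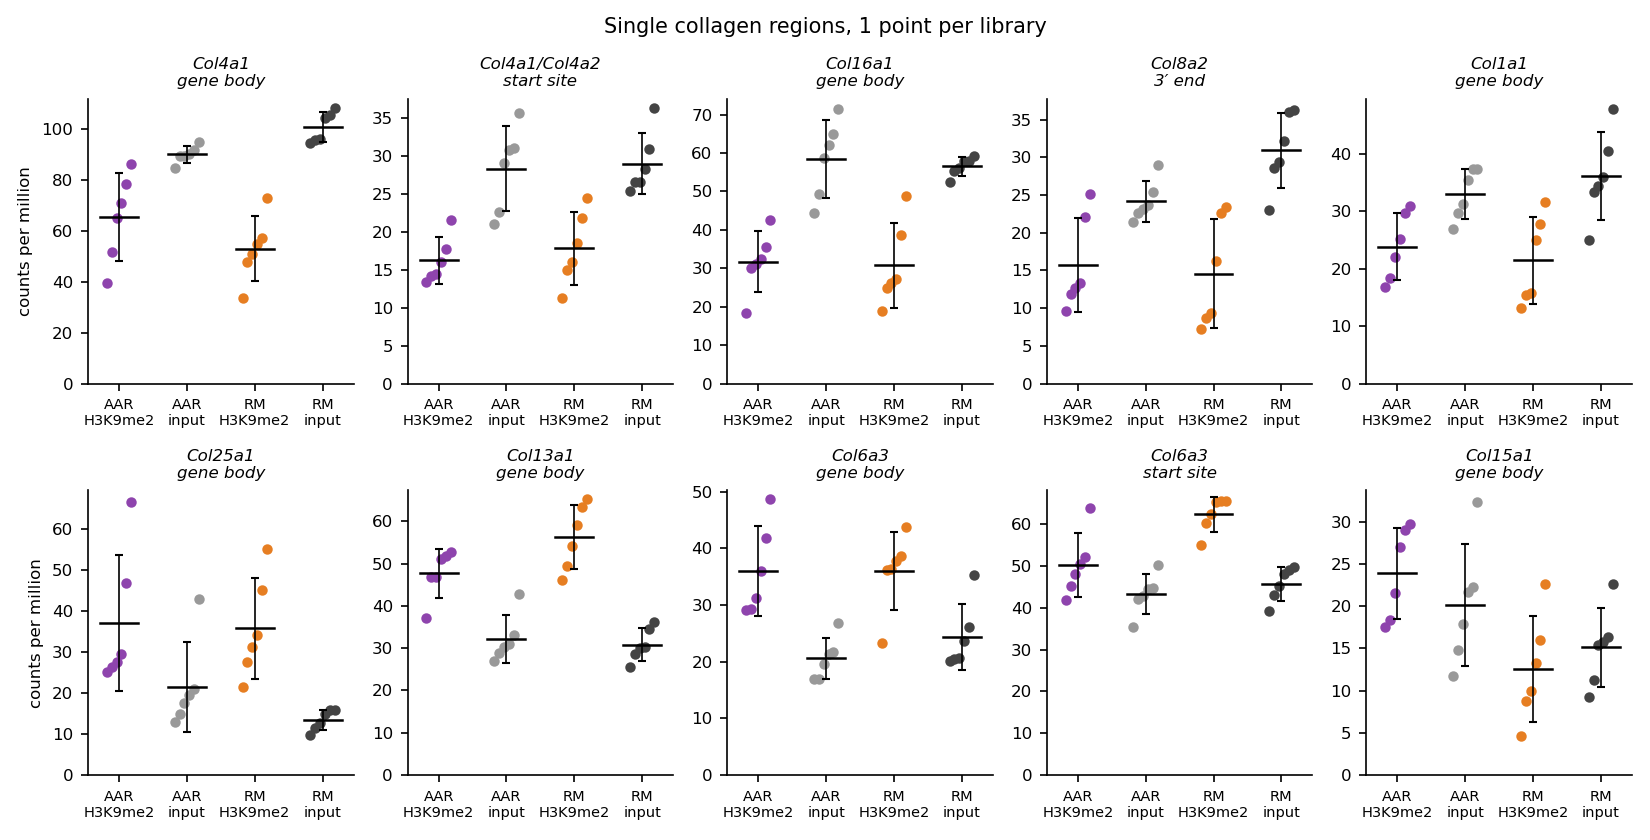
CPM (vertical axis, from 0) of 10 collagen regions, 1 point per library in the 4 groups, with the mean (bar) and SD (whiskers, n = 6). In the upper row H3K9me2 lay below input, as for Col16a1 with medians of 31.8 and 60.4 in the area at risk; in the lower row it lay mostly above, as for Col25a1 with medians of 28.6 and 18.6, and the last panel shows the Col15a1 region with the smallest p between biopsies.

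The biopsies use different libraries, so their calls against input can be set side by side. Of the 22 regions higher in the area at risk, 14 were also higher in the remote myocardium, which is 63.6% of the area at risk calls and 37.8% of the 37 remote calls. Of the 12 lower regions, 8 were shared, 66.7% of the area at risk calls and 36.4% of the 22 remote calls. Over all regions, 81.6% of the higher and 83.6% of the lower area at risk calls were also called in remote tissue, and 45.3% and 51.6% of the remote calls in the area at risk, so the shares among collagens were below those of the whole set; the difference was not tested. Regions called in both made up 9.38% (higher) and 10.4% (lower) of all regions tested in both. No collagen region was called in opposite directions, and 154 of the 183 tested in both had the same sign (84.2%, beside 83.3% of all regions). Complete separation of H3K9me2 from input was seen at 9 higher and 6 lower collagen regions in the area at risk (4.81% and 3.21%), where 2.24% and 5.73% of all regions separated. In the remote myocardium it was seen at 11 higher and 6 lower (5.98% and 3.26%), where 6.84% and 8.46% of all regions did. These differences from the background were not tested.

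The area at risk was then set against the remote myocardium of the same preconditioned hearts, which compares tissue inside and outside the ligated territory. No collagen region was called with H3K9me2 (0 of 149), with input (0 of 191) or with H3K9me2 corrected for input (0 of 191), and the background share called was 0 in each. By edgeR's unadjusted p under 0.05 there were 3, 7 and 5 collagen regions, where 4.03%, 2.72% and 4.07% of all regions passed; DESeq2 called 0 as well in the H3K9me2 and input comparisons. Complete separation of the biopsies occurred at 0 collagen regions, with H3K9me2 (0.0825% of all regions separated higher and 0.0856% lower) and with input (0.0751% and 0.061%). The median log2 fold change of H3K9me2 was -0.02 for fibrillar, -0.03 for basement membrane and 0.01 for other collagens, with a median SE of 0.20 per region. Differences of a size common between H3K9me2 and input, a median of 0.57 among collagen regions called in the area at risk, were therefore less than 3 SE of a single region here.

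The smallest p belonged to Col15a1 at chr4:47242200-47244199. It held 17.6 to 29.7 CPM in H3K9me2 of the area at risk (median 24.3), against 4.64 to 22.6 CPM in H3K9me2 of the remote myocardium (median 11.6). Input at the same place had 11.7 to 32.3 CPM in the area at risk (median 19.8), against 9.25 to 22.6 CPM in the remote myocardium (median 15.6). Both pairs of groups overlapped. The log2 fold change of H3K9me2 was 0.98 (SE 0.25, unadjusted p = 0.0002, edgeR adjusted p = 0.999) and that of input 0.35 (SE 0.20, unadjusted p = 0.0777), and the interaction was 0.63 (SE 0.34, unadjusted p = 0.0643).

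The other collagen regions with an unadjusted p under 0.05 for H3K9me2 were both lower in the area at risk, Col23a1 at chr11:51422400-51424599 (log2 fold change -0.47, SE 0.20) and the Col6a3 start described above (-0.31, SE 0.15, lower in 6 of 6 mice). Corrected for input, the smallest p were at Col4a1 chr8:11215200-11225599 (0.45, SE 0.16, unadjusted p = 0.00694), the Col15a1 region chr4:47278600-47282199 (0.52, SE 0.21, unadjusted p = 0.0138) and Col5a3 chr9:20784800-20786399 (-0.75, SE 0.31, unadjusted p = 0.0162). None passed adjustment. In the authors' deposited tables too, 0 collagen regions had an FDR under 0.05 between biopsies. Those tables hold 37 collagen regions for the area at risk against input (24 with H3K9me2 higher and 13 lower) and 49 for the remote myocardium against input (31 higher and 18 lower) at that threshold, which is 16.2% and 21.5% of the 228 regions, where those tables call 17.2% and 28.5% of all regions.

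**Figure D5:**
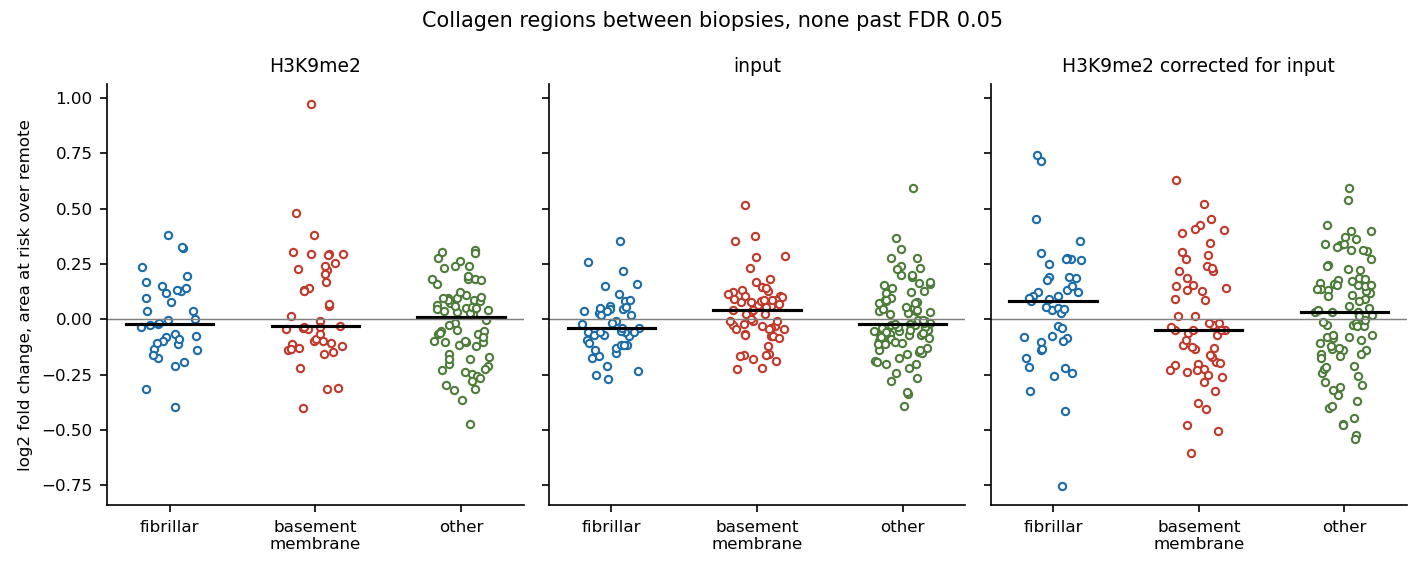
Log2 fold change of the area at risk over the remote myocardium (vertical axis) for each tested collagen region by class, for H3K9me2, for input and for H3K9me2 corrected for input; black bars are medians. None passed an adjusted p of 0.05, and the point furthest from 0 in the H3K9me2 panel is the Col15a1 region at 0.98.

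Genes that act on collagen were counted from textbook lists. Values given for such a gene are those of its tested region of smallest p in that biopsy, so its other regions may differ. Of 19 genes for folding and modification of the chains in the endoplasmic reticulum with a tested region, 8 had calls below input alone and 2 above alone in the area at risk, and 12 below and 0 above in the remote myocardium. They included the hydroxylases Plod1 (log2 fold change -0.75, SE 0.14, adjusted p = 0.000123 in the area at risk and -0.68, SE 0.14, adjusted p = 1.2e-05 in the remote myocardium) and Plod3 (-1.10, SE 0.19, adjusted p = 3.21e-05 and -0.82, SE 0.17, adjusted p = 2.41e-05). P4hb, the beta subunit of prolyl hydroxylase, had -0.54 (SE 0.20, adjusted p = 0.0366) and -0.76 (SE 0.19, adjusted p = 0.000702), all of these in regions within 2 kb of a start. The P4hb call in the area at risk was lost without mouse 17, 19, 23, 27 or 30 (adjusted p from 0.0734 to 0.105) and by DESeq2 (adjusted p = 0.0993). Serpinh1, the collagen chaperone, was called in the remote myocardium alone (-0.71, SE 0.21, adjusted p = 0.00297). Over the list's regions 3 were higher and 9 lower of 49 in the area at risk (6.12% and 18.4%, where 11.3% and 12.3% of all regions were called) and 0 higher and 19 lower of 51 in the remote myocardium (0% and 37.3%, where 20.5% and 20% were), with medians of -0.29 and -0.33.

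Genes for processing and crosslinking were mixed, with 4 of 12 above alone and 3 below alone in the area at risk and 2 above alone, 5 below alone and 2 with both in the remote myocardium. By region, 14.8% were higher and 16.4% lower in the area at risk and 13.1% and 24.6% in the remote myocardium, beside 11.3%, 12.3%, 20.5% and 20% of all regions in that order. Adamts2, a procollagen N-proteinase, was above input in the area at risk (0.74, SE 0.14, adjusted p = 6.79e-05), and Tgm2, a crosslinking transglutaminase, was below it (-1.14, SE 0.19, adjusted p = 1.87e-05). Of 7 receptor genes, 1 was above and 1 below in the area at risk and 1 above and 3 below in the remote myocardium (by region 3.7% higher and 3.7% lower, and 7.14% and 10.7%, all below the shares of all regions). A region within 2 kb of the start of Itgb1, the beta chain of collagen-binding integrins, was below input in both (-1.07, SE 0.29, adjusted p = 0.00545 in the area at risk and -1.28, SE 0.26, adjusted p = 1.61e-05 in the remote myocardium). Of 6 turnover genes, 1 was above and 2 below in the area at risk and 1 above and 4 below in the remote myocardium (by region 3.7% higher and 14.8% lower, and 3.57% and 35.7%).

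The 14 measured genes of other basement membrane proteins had 3 above and 4 below alone in the area at risk and 5 above and 5 below alone in the remote myocardium. By region, 7.35% were higher and 29.4% lower in the area at risk, where 11.3% and 12.3% of all regions were. The remote myocardium had 13.6% higher and 39.4% lower, where 20.5% and 20% of all regions were. Hspg2, which encodes perlecan, had a gene body region at -0.89 (SE 0.12, adjusted p = 1.14e-07) in the area at risk and -1.32 (SE 0.10, adjusted p = 8.14e-27) in the remote myocardium. Lama5 and Lamb2, laminin chains of vessels and muscle, were below input in regions within 2 kb of their starts. For Lama5 the fold change was -1.22 in the area at risk, beside -1.07 in remote tissue, and the Lama5 region does not hold the start. For Lamb2 it was -0.55 in the area at risk, beside -1.02 in remote tissue. Lama1, a laminin chain mainly of embryonic basement membranes, was above it (0.68, SE 0.21, adjusted p = 0.0116 in the area at risk and 1.03, SE 0.17, adjusted p = 1.77e-07 in the remote myocardium), but not past the threshold in the area at risk without mouse 22 (adjusted p = 0.0537). In all 6 lists, 0 regions were called between the biopsies for H3K9me2, for input or corrected for input.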

How the data were processed

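The authors deposited whole-number counts per region for 24 libraries, in 4 tables over the same regions, each with the authors' log2 fold change, log2 mean CPM, p-value and FDR, per the file headers. Bowtie2 2.2.2, SICER 1.1, edgeR and build mm10 are named without roles, per the submitters' processing notes. The calling of regions and the choice of reads counted are not given in the sources used here. Pairs of groups were fitted on the deposited counts with edgeR 4.0.16 (R 4.3.3): TMM, filterByExpr, two-sided quasi-likelihood test, adjusted over all regions tested. The input-corrected difference is the interaction over 24 libraries. SE is the log2 fold change divided by the square root of F. DESeq2 1.42.0 was the alternative tool. CPM was computed here from library totals without TMM.

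Members, classes and gene lists were chosen with earlier results of these data known. Regions were named by rule: per contrast against input, class and direction, the 3 called regions of smallest adjusted p; per contrast between biopsies, the 3 of smallest p in each direction; the region of highest CPM of cardiac collagens; and shared starts. Others were named after their values were seen. A start site region lies within 2 kb of a RefSeq start; for genes without a placed start either gene end was used. Mouse numbers mark the same animal in all 4 groups, which pairs the samples; same-mouse deviations correlated from -0.16 to 0.17. Separate biopsies were taken from each animal, and chi-square per region between libraries of a group ran from 1.02 to 2.03, so none was a copy. Alternatives were the mouse as block, other scalings, no filter, DESeq2, an FDR of 0.01, other region sets and leaving out each mouse. The fits were tested on simulated data.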

Additional observations from a re-analysis of the deposited data

Results flagged for a closer look

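Single libraries stood apart from the other 5 of their group, by a gap to the nearest that was large for the group's whole range (Dixon's criterion at 95%), at 13 of 148 sets of library values tested; chance flags about 1 in 20 groups. For Col23a1, the highest library in H3K9me2 of the area at risk at chr11:51422400-51424599 (mouse 27) held 34 CPM and the nearest 21.7 CPM. Also for Col23a1, the lowest library in input of the remote myocardium at chr11:51428200-51432399 (mouse 30) held 30.7 CPM and the nearest 34.5 CPM. For Col25a1, the highest library in input of the area at risk at chr3:130537200-130539799 (mouse 17) held 43.1 CPM and the nearest 21 CPM. For Col5a1, the highest library in input of the area at risk at chr2:28004400-28006999 (mouse 22) held 35.1 CPM and the nearest 24.9 CPM. Also for Col5a1, the lowest library in input of the area at risk at chr2:28015400-28022399 (mouse 30) held 49.9 CPM and the nearest 62.2 CPM. For Col6a3, the lowest library in H3K9me2 of the remote myocardium at chr1:90771000-90773599 (mouse 19) held 23.2 CPM and the nearest 36.1 CPM. For Col6a4, the highest library in H3K9me2 of the area at risk at chr9:106079000-106081799 (mouse 22) held 74.4 CPM and the nearest 37.8 CPM. Also for Col6a4, the highest library in H3K9me2 of the remote myocardium at chr9:106079000-106081799 (mouse 19) held 52.6 CPM and the nearest 34.8 CPM. For Col18a1, the highest library in input of the area at risk at chr10:77049400-77051599 (mouse 27) held 25.6 CPM and the nearest 21.6 CPM. For Col15a1, the highest library in input of the area at risk at chr4:47299000-47300599 (mouse 19) held 28 CPM and the nearest 15.9 CPM. Also for Col15a1, the highest library in H3K9me2 of the area at risk at chr4:47278600-47282199 (mouse 19) held 61.2 CPM and the nearest 44.3 CPM. Also for Col15a1, the highest library in input of the area at risk at chr4:47278600-47282199 (mouse 27) held 32.5 CPM and the nearest 30.7 CPM. Also for Col15a1, the lowest library in input of the remote myocardium at chr4:47268600-47271199 (mouse 23) held 16.6 CPM and the nearest 24.9 CPM.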

How the results depend on the processing

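Between biopsies, no alternative produced a call for H3K9me2, input or the input-corrected difference; DESeq2 was not run for the last. With the mouse as replicate block, all 101 named region results kept direction and call, and the sole count to move by over 1.5 times was that of lower calls among other collagens in the area at risk (4). Other scalings and no filter moved none. DESeq2 called 5 collagen regions lower in the area at risk, 2 fibrillar higher, 4 basement membrane lower and 1 other lower, and in the remote myocardium 5 fibrillar higher and 3 other lower. At an FDR of 0.01 those 6 counts were 5, 1, 4, 1, 2 and 3, with 20 higher collagen calls and 16 higher other calls in the remote myocardium. Among regions that overlap no other, fibrillar calls were 1 lower in the area at risk and 4 higher in the remote myocardium. Among regions overlapping the gene, 1 basement membrane region was higher in the remote myocardium. With each mouse left out, calls in the area at risk ran from 14 to 22 higher and 6 to 13 lower (fibrillar 1 to 3 and 0 to 1, basement membrane 2 to 3 and 5 to 9, other 11 to 17 and 1 to 4), and in the remote myocardium from 28 to 33 and 16 to 23 (fibrillar 4 to 7 and 2 to 5, basement membrane 1 to 2 and 10 to 14, other 21 to 25 and 3 to 6). The sign reversed at Col15a1 chr4:47278600-47282199 in the remote myocardium, an uncalled region (-0.0248 among regions that overlap no other, and from -0.1364 to 0.1243 with a mouse left out, negative without mouse 23 or 30), and at uncalled Col18a1 chr10:77066600-77069999 in the area at risk (from -0.0988 to 0.1203 with a mouse left out, negative without mouse 23 or 27). The cause was not tested. Counting depth limits single regions, with a median SE of 0.20 for H3K9me2 between biopsies.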

Other observations

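Genes of the transforming growth factor beta axis, a main inducer of collagen synthesis in fibroblasts, were counted in the same way. Values for a gene are again those of its region of smallest p. Of 14 measured genes, 3 had calls above input alone and 5 below alone in the area at risk, and 3 above alone, 5 below alone and 2 with both in the remote myocardium. Over the regions, 3 were higher and 10 lower of 74 in the area at risk, and 13 higher and 17 lower of 74 in the remote myocardium. These were 4.05% and 13.5%, where 11.3% and 12.3% of all regions were called, and 17.6% and 23%, where 20.5% and 20% were, so all but the higher calls in the area at risk were near the background. A region within 2 kb of the start of Tgfb1, which encodes the ligand, was below input in both (-0.77, SE 0.20, edgeR adjusted p = 0.00369 in the area at risk and -1.12, SE 0.21, edgeR adjusted p = 2.67e-06 in the remote myocardium). A region within 2 kb of the start of Ltbp4, a latent binding protein, was lower still (-1.18, SE 0.17, edgeR adjusted p = 1.22e-06 and -1.63, SE 0.19, edgeR adjusted p = 6.95e-14, in the same order). In a gene body region of Smad3, the signal transducer, H3K9me2 was above input (0.47, SE 0.16, edgeR adjusted p = 0.0224 and 0.58, SE 0.15, edgeR adjusted p = 0.000668), and the call in the area at risk was lost without mouse 23 or 30 (adjusted p = 0.0677 and 0.137) and by DESeq2 (adjusted p = 0.0512). Elsewhere Smad3 also had a call below input in the remote myocardium.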
